A study of Mus musculus with 9 samples.

Results

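The comparison of bladder urothelium with bladder stroma rests on 6 of the 9 arrays of the series, the 3 whose source is urothelium and the 3 whose source is stroma, and covers all genes that passed a filter on dim signal. All arrays carry RNA of newborn FVB/N mice with the SMGA/EGFP transgene, in which the smooth muscle gamma-actin gene drives a green fluorescent protein, so both layers share strain and transgene. The other 3 arrays are of detrusor, the smooth muscle layer. Layers were cut from frozen sections 8 microns thick by laser capture, and the RNA went through 2 rounds of amplification before hybridisation to Affymetrix MOE430 arrays. Urothelium 1 and 3 and stroma 2 and 3 came from postnatal day 2, and urothelium 2 and stroma 1 from postnatal day 1. Detrusor 1 and 2 came from postnatal day 1 and detrusor 3 from postnatal day 2. The labels give the sex as unknown, state that samples were not pooled, and do not tie a capture to an animal. Some captures may share an animal, so p-values measure the spread between these samples and may be too small.

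The urothelium is the layered epithelium that lines the bladder. Its superficial umbrella cells carry plaques of uroplakins and are sealed by tight junctions, and its lower cells express basal keratins. The stroma, or lamina propria, beneath it is a connective tissue of fibroblasts, vessels, nerves and resident macrophages in a collagen matrix. The layers signal to each other in the developing bladder. Sonic hedgehog made by the epithelium is received by mesenchymal cells through Patched, and the mesenchyme returns ligands of other families.

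Levels below are log2(signal + 39.31), the added constant being the 20th percentile of all values, and differences are urothelium minus stroma on that log2 scale, which understates the change of low genes. A gene was called when the limma adjusted p, over 13064 genes, was under 0.05. Genes are represented by 1 probe set each, and levels are not compared between genes. In captured tissue, fewer cells of a type and less RNA per cell cannot be told apart.

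Markers of other tissues stood high on particular arrays. The array labelled stroma 2 was the highest of the 6 for 17 of 17 Sertoli and gonadal support cell genes, with a summed signal of 314315 against 11192 to 17403 on the other 5, and for 8 of 8 germ cell genes, with 15861 against 366 to 991. Amh, a defining Sertoli cell hormone, stayed near the bottom of the scale there at 6.55, whereas Inha read 15.13 and Dmrt1, Nr5a1 and Gata4 were also highest there. The summed signal of 18 renal tubule genes was 115096 on urothelium 1 and 101677 on stroma 3. It was 17247 on stroma 2, 13470 on urothelium 3, 2729 on stroma 1 and 1550 on urothelium 2. These tissue lists were drawn up after the values were seen. Each of them is given as a measured level, and its part in the results below was not tested.

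Layer markers also crossed between layers. The 15 uroplakin and umbrella cell genes summed to 273742, 396519 and 317676 on the urothelium arrays and to 107869, 24052 and 259106 on stroma 1, 2 and 3. All 3 stroma arrays were above the highest detrusor array, at 19650. The 21 smooth muscle contractile genes summed to 738510 on urothelium 3, against 90003 and 59233 on urothelium 1 and 2, and to 354982, 147155 and 349658 on the stroma arrays. Over all genes, stroma 3 correlated with urothelium 1 at r = 0.90 and with stroma 1 at 0.85. Stroma 1 had the largest ratio of 3-prime to 5-prime Actb probe signal of the 6 arrays, at 24.7 against 5 to 8.49. The deposited values share 1 scale, with a trimmed mean of 1500 on the lowest and highest array, while the median signal ran from 133.3 on urothelium 2 to 388.5 on stroma 3.

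**Figure D1:**
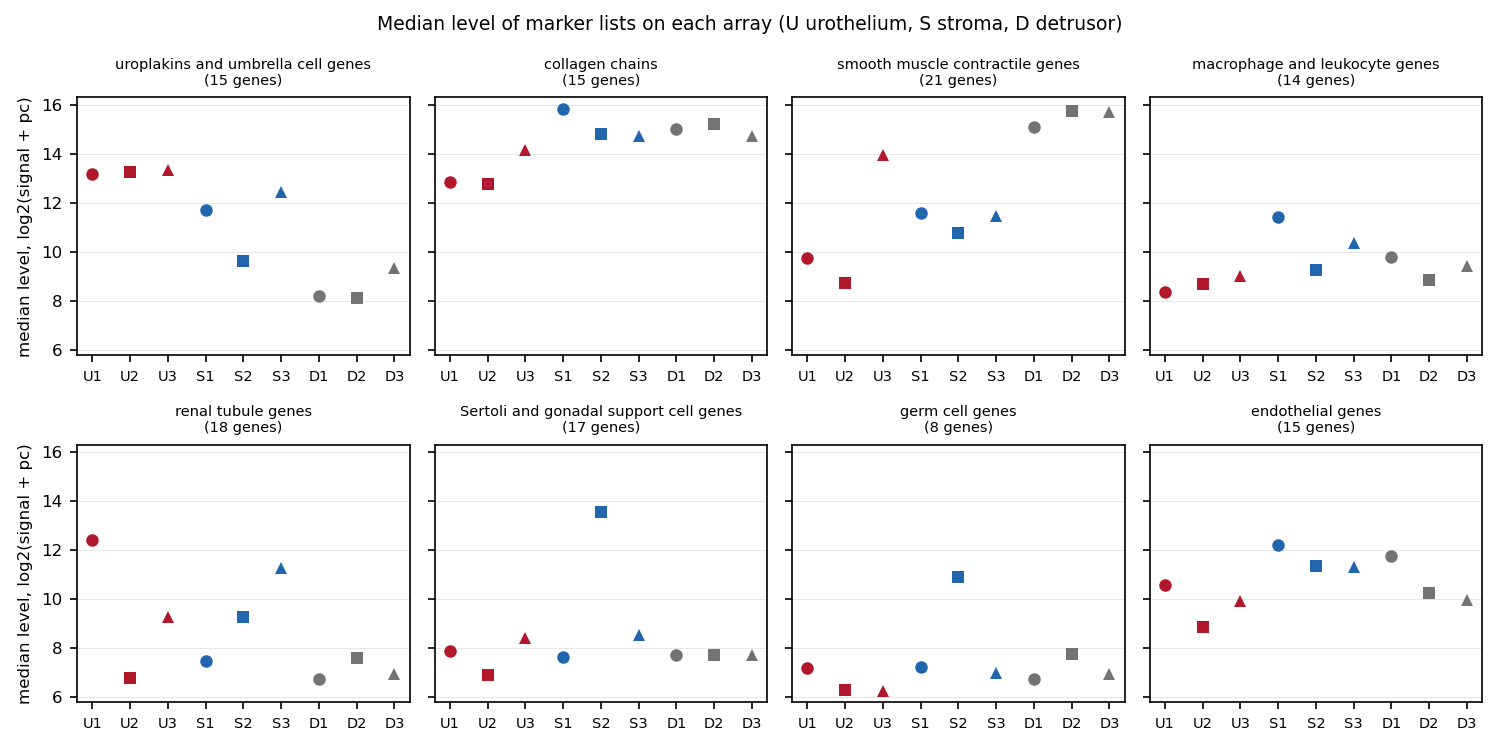
Median log2(signal + pseudocount) of 8 marker lists on each of the 9 arrays, with urothelium in red, stroma in blue and detrusor in grey, and circles, squares and triangles for replicates 1, 2 and 3. Stroma 2 stands alone for the Sertoli (13.57) and germ cell (10.9) lists, urothelium 1 and stroma 3 lead the renal tubule list (12.39 and 11.25), and urothelium 3 (13.97) is the urothelium array nearest to detrusor for smooth muscle genes.

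Of 13064 genes, 30 were called (0.23%). In the urothelium 8 were higher (0.0612%) and 22 were lower (0.168%), and the urothelium and stroma arrays did not overlap for any of the 30. The largest differences of the higher genes were those of Cldn8, Mpzl3 and Sytl2, and of the lower genes those of Stmn3, Creb5, Wnt2 and Cxcl12. Over all genes, 1276 had every urothelium array above every stroma array (9.77%) and 1737 had every one below (13.3%), and 2481 had an unadjusted p under 0.05. The median difference of all genes was -0.12. The share of higher among called genes was 26.7%, and moved to 45.2% of 93 calls after quantile normalization and to 86.1% of 223 calls after median centring, which shifted the all-gene median to -0.01 and 0.31.

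The number of calls depended on single arrays. It was 528 without stroma 3, 102 without urothelium 3, 50 without stroma 2, 21 without detrusor 2, 2 without detrusor 3 and 1 without urothelium 1. No gene was called by limma without urothelium 2, stroma 1 or detrusor 1, though 1588, 2179 and 2259 then passed an unadjusted p of 0.05. The 30 calls also used the spread of the detrusor arrays, and a fit of the 6 arrays alone called no gene, with 2071 at an unadjusted p under 0.05. The direction of each of the 30 genes was the same in all 24 alternative settings, and each kept its call in 8 to 17 of them. As the layers did not overlap for any of the 30, settings that only left arrays out could not change a direction.

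Stroma 3 and urothelium 3 carried transcripts of the neighbouring layers, and the comparison was repeated without both. The arrays kept were not free of such transcripts. Stroma 1 had a smooth muscle sum of 354982 and an uroplakin and umbrella cell sum of 107869. Stroma 2 had a Sertoli and gonadal sum of 314315, and urothelium 1 a renal tubule sum of 115096. The repeated comparison called 440 genes (3.37%), with 217 higher (1.66%) and 223 lower (1.71%) in urothelium, and all 30 were among them. Of the 440, 345 also had no overlap over all 6 arrays, 181 higher and 164 lower. Over all genes, 9.77% were higher and 13.3% lower in urothelium without overlap. Both arrays were left out because of their values, and a gene called on the rest is mostly apart on those already. The 345 are therefore a description only.

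**Figure D2:**
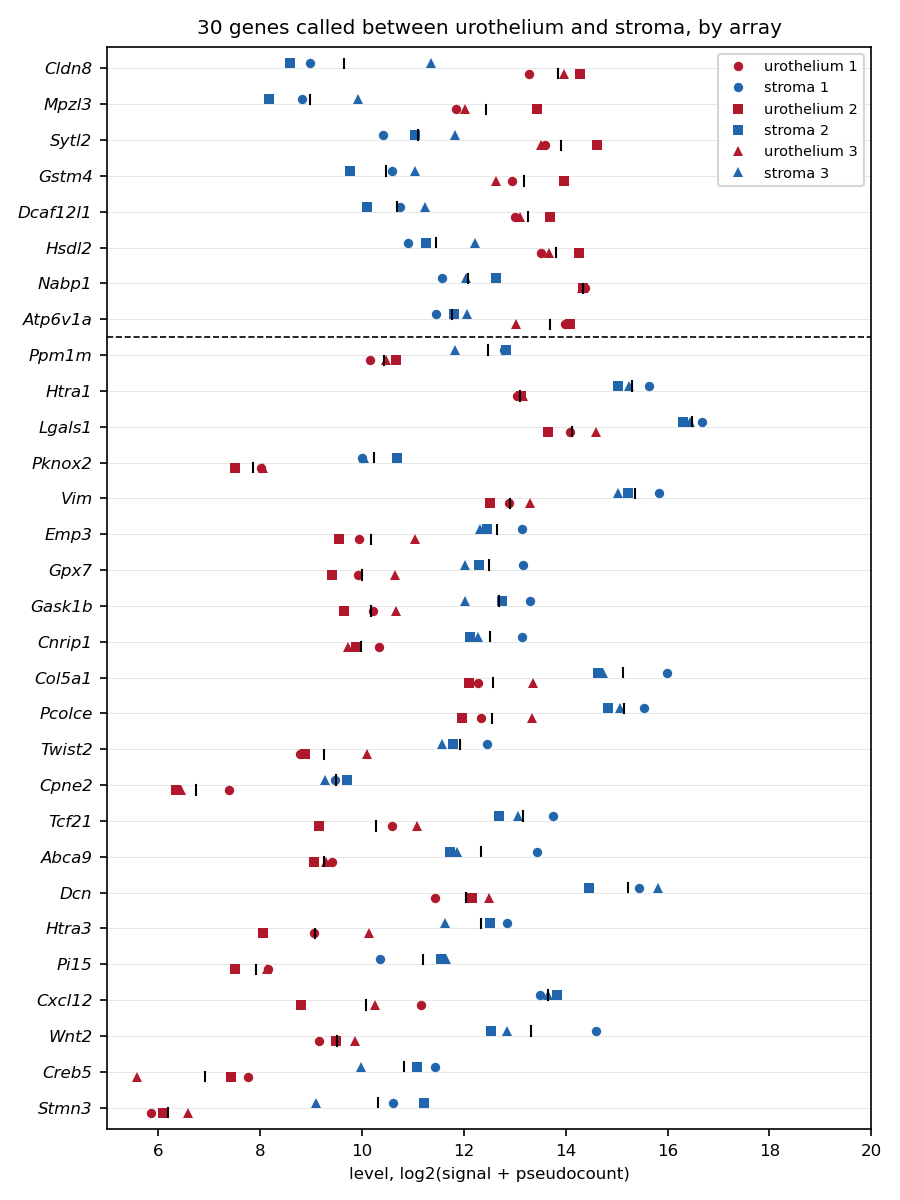
Level of the 30 called genes on each urothelium (red) and stroma (blue) array, in log2(signal + pseudocount), with replicates 1, 2 and 3 as circles, squares and triangles and short black bars at the group means (n = 3). The dashed line parts the 8 genes higher in urothelium from the 22 lower ones. Stroma 3 is the highest stroma array for 7 of the 8, and urothelium 3 the highest urothelium array for 15 of the 22. The shares over all genes were not counted, and stroma 3 had the highest median signal of the 6 arrays, at 388.5.

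Promoter sequences of 2 of the 5 marker genes, Wnt2 and Cxcl12, and of a called gene from each side with a motif match, Gstm4 and Emp3, are shown because they are the start regions of genes that differed between the layers. The latter pair was chosen after the matches were seen. Gstm4 and Emp3 each have 2 starts listed, and the first was used. Sequences are RefSeq's (GRCm38.p6), the 250 bases before the start, 5′ to 3′ on the gene's strand. The Wnt2 window is chr6:18030446-18030695 (minus strand), that of Cxcl12 is chr6:117168285-117168534 (plus strand), that of Gstm4 is chr3:108044860-108045109 (minus strand) and that of Emp3 is chr7:45921427-45921676 (minus strand). Capitals mark the E-box forms CATATG and CAGATG, read on both strands, and TATAAA. Other E-box forms were not searched and stay in lower case.

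Wnt2: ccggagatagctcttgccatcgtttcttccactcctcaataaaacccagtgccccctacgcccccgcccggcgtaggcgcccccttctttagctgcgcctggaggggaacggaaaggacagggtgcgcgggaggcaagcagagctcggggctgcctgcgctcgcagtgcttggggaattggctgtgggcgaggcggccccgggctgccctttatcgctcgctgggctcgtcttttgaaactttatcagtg
Cxcl12: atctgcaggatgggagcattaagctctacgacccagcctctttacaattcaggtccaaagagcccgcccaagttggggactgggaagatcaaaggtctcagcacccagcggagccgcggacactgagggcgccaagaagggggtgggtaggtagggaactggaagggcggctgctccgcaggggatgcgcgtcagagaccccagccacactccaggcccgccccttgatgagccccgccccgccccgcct
Gstm4: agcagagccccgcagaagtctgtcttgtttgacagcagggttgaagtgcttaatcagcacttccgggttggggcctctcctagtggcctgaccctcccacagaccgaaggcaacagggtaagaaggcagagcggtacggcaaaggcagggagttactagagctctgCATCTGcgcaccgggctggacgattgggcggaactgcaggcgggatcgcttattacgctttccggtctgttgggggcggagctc
Emp3: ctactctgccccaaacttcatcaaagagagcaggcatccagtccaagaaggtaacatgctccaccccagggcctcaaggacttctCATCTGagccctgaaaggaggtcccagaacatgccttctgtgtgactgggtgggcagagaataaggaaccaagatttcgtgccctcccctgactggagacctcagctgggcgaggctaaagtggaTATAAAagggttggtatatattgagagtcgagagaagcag

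Of the 30 called genes, 23 matched a RefSeq start region of 250 bases before to 50 after the start, as did 10504 of all genes tested. Only the first start listed for a gene was searched. Either of the E-box forms CATATG and CAGATG was found in 8 of these 23 and in 13.1% of all start regions. The 8 were 2 of 5 higher and 6 of 18 lower genes. The letters TATAAA were found in 2 of the 18 lower genes, Emp3 and Vim, and in 7.61% of all start regions. ACCGGT, the core of the grainyhead-like motif, was in none of the 23 and in 3.24% of all. These are matches of letters in a window and no test was made of them.

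Cldn8, a claudin that seals tight junctions, had the largest difference of the 8 higher genes. It read 13.28, 14.28 and 13.96 on urothelium 1, 2 and 3 and 8.98, 8.59 and 11.36 on stroma 1, 2 and 3. The groups did not overlap, and stroma 3 was the stroma array nearest to the urothelium. The difference was 4.20 (SE 0.64, limma adjusted p = 0.041), an 18.4-fold ratio, and 5.0 without stroma 3 and urothelium 3. On the detrusor arrays Cldn8 lay at 5.55 to 5.71, near the bottom of the scale.

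Mpzl3, an immunoglobulin-domain membrane protein of epithelia, read 11.84, 13.44 and 12.02 on the urothelium arrays and 8.82, 8.18 and 9.92 on the stroma arrays. Urothelium 2 was highest and stroma 3 was again the stroma array closest to the urothelium. The group means were 12.43 ± 0.88 and 8.98 ± 0.88 (SD, n = 3 each), and the difference was 3.46 (SE 0.55, limma adjusted p = 0.044). Detrusor arrays read 8.31 to 9.03, within the range of the stroma.

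Sytl2, a Rab27-binding protein of secretory vesicles, read 13.59, 14.61 and 13.51 against 10.41, 11.04 and 11.82, a difference of 2.81. Gstm4, a mu-class glutathione transferase, read 12.95, 13.97 and 12.64 against 10.59, 9.78 and 11.05, a difference of 2.71. Both were higher on every urothelium array than on any stroma array, by the smallest margin against stroma 3. Nabp1, a single-stranded DNA-binding protein of DNA repair, was the tightest of the 8 in urothelium, at 14.38, 14.34 and 14.31, against 11.57, 12.62 and 12.03 in stroma. It was the gene among the 8 for which stroma 2, not stroma 3, was the highest stroma array. Dcaf12l1, a WD-repeat protein, differed by 2.57, Hsdl2, a peroxisomal short-chain dehydrogenase, by 2.35 and Atp6v1a, the catalytic subunit of the vacuolar proton pump, by 1.92. The limma adjusted p of these 6 genes ran from 0.031 to 0.049.

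Among the 22 lower genes, Wnt2, a secreted Wnt ligand of mesenchyme, read 9.16, 9.49 and 9.87 on the urothelium arrays and 14.59, 12.54 and 12.85 on the stroma arrays. Stroma 1, from day 1, was the highest, and the groups did not overlap. The difference was -3.82 (SE 0.58, limma adjusted p = 0.041), a 14.2-fold ratio. Detrusor arrays lay between the layers at 11.64, 10.41 and 12.10.

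Cxcl12, the chemokine ligand of Cxcr4, read 11.17, 8.80 and 10.25 on the urothelium arrays and 13.50, 13.84 and 13.65 on the stroma arrays. The stroma arrays were close together (13.66 ± 0.17, SD, n = 3) and the urothelium arrays spread widely (10.07 ± 1.19, SD, n = 3). The difference was -3.59 (SE 0.50, limma adjusted p = 0.031).

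Dcn, the small leucine-rich proteoglycan decorin, read 11.44, 12.16 and 12.50 on the urothelium arrays and 15.43, 14.45 and 15.80 on the stroma arrays. Here stroma 3 was the highest stroma array, and without it and urothelium 3 the difference was -3.14, against -3.20 with all arrays (SE 0.45, limma adjusted p = 0.031). Detrusor arrays read 13.65 to 15.15, near the stroma.

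Lgals1, the secreted lectin galectin-1, had the smallest limma adjusted p of all genes (0.018). It read 14.09, 13.66 and 14.60 in urothelium and 16.68, 16.30 and 16.45 in stroma, a difference of -2.36 (SE 0.25). Vim, the intermediate filament of mesenchymal cells, read 12.89, 12.51 and 13.30 against 15.83, 15.22 and 15.02, a difference of -2.46 (SE 0.34). The layers did not overlap for either gene, and the lowest stroma array lay above urothelium 3, the highest urothelium array.

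Stmn3, a microtubule-destabilising stathmin best known from neurons, had the largest difference of the 22 lower genes. It read 5.87, 6.10 and 6.59 in urothelium, near the bottom of the scale, and 10.62, 11.21 and 9.10 in stroma, a difference of -4.12 (SE 0.62). Detrusor arrays read 9.29 to 10.96. Creb5, a basic leucine zipper transcription factor, read 7.76, 7.42 and 5.58 against 11.43, 11.09 and 9.98, a difference of -3.91 (SE 0.62).

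Of the list of matrix proteases and inhibitors 4 members were among the 22. The serine protease Htra3 read 9.05, 8.06 and 10.14 in urothelium and 12.86, 12.51 and 11.64 in stroma, and its relative Htra1 read 13.05, 13.12 and 13.16 against 15.64, 15.02 and 15.24. The urothelium arrays lay close together for Htra1, with an SD of 0.057, and urothelium 3 was raised for Htra3. Pcolce, which enhances procollagen C-terminal cleavage, differed by -2.60, and the peptidase inhibitor-like secreted protein Pi15 by -3.26. Col5a1, a chain of the fibril-regulating type V collagen, differed by -2.54, at 12.28, 12.09 and 13.36 against 16.00, 14.63 and 14.73.

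The called genes also held transcription factors besides Creb5. The basic helix-loop-helix factors Tcf21 and Twist2 of fibroblast lineages differed by -2.89 and -2.68, and the homeobox factor Pknox2 by -2.38. Tcf21 read 10.59, 9.16 and 11.09 in urothelium and 13.75, 12.69 and 13.07 in stroma. Twist2 read 8.78, 8.89 and 10.10 against 12.45, 11.79 and 11.57, with urothelium 3 the nearest to the stroma in both. The remaining called genes were Abca9 at -3.09, Cpne2 at -2.75, Cnrip1 at -2.53, Gask1b at -2.51, Gpx7 at -2.50, Emp3 at -2.46 and Ppm1m at -2.05. Abca9 is a lipid-transporter family member, Cpne2 a calcium-dependent membrane-binding copine and Gpx7 an endoplasmic reticulum peroxidase.

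The 10 largest differences in each direction among the 345 genes were led by Sema3e on the urothelial side and Agtr2 on the stromal side. They were selected in the fit without stroma 3 and urothelium 3, so their sizes are a description. Sema3e, a secreted guidance protein, read 11.67, 13.20 and 11.66 in urothelium and 5.64, 5.54 and 10.90 in stroma, where stroma 3 alone was raised. Scnn1g, the gamma subunit of the epithelial sodium channel, read 11.74 and 12.25 on urothelium 1 and 2 and 5.90 and 5.58 on stroma 1 and 2. On stroma 3 it read 10.96, just under its level on urothelium 3. Psca, a surface antigen of the Ly6 family, read 11.49, 12.25 and 11.87 against 6.08, 5.68 and 11.01. The same split of stroma 3 from stroma 1 and 2 was seen for the phospholipid flippase Atp10b, the pentaspan protein Prom2 and the calcium-activated chloride channel regulator Clca3a2. Without the 2 arrays Sema3e differed by 6.84, Atp10b by 6.36, Scnn1g by 6.26, Hsd17b2, which inactivates sex steroids, by 6.22 and Syt16 by 6.22. With all arrays, the 4 probe sets of Sema3e gave differences from 1.425 to 4.815, and the one used gave the largest.

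On the stromal side, Scara5, a ferritin receptor, read 7.26, 10.46 and 8.91 in urothelium and 14.75, 13.66 and 12.91 in stroma, and its adjusted p with all arrays was 0.054 in limma. Mfap4 and Mfap5, microfibril-associated proteins of elastic fibres, read 14.33 and 13.08 on urothelium 3, against 11.54 and 10.86 on urothelium 1 and 8.82 and 8.94 on urothelium 2. Agtr2, the type 2 angiotensin receptor, read 9.43, 5.51 and 11.34 in urothelium and 14.17, 11.96 and 11.41 in stroma, and 14.05 to 14.31 on the detrusor arrays. For these 3 genes urothelium 3, whose smooth muscle sum was the highest of the 6, was well above the lower urothelium arrays. Pi16, a secreted protein of fibroblasts, Dclk1, a microtubule-associated kinase, and Abca8a differed by -4.33, -4.21 and -4.26 without the 2 arrays.

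The 33 lists of related genes held 510 distinct genes, of which 439 passed the filter, 41 were below it and 30 had no probe set of 1 symbol. A member that passed only through its higher layer had to differ, so the counts describe the members that passed and support nothing further. In the fit of all arrays the called shares over all genes stand above, and those without stroma 3 and urothelium 3 were 1.66% higher and 1.71% lower. For the counts of members without overlap, the shares over all genes were 9.77% higher and 13.3% lower in urothelium.

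**Figure D3:**
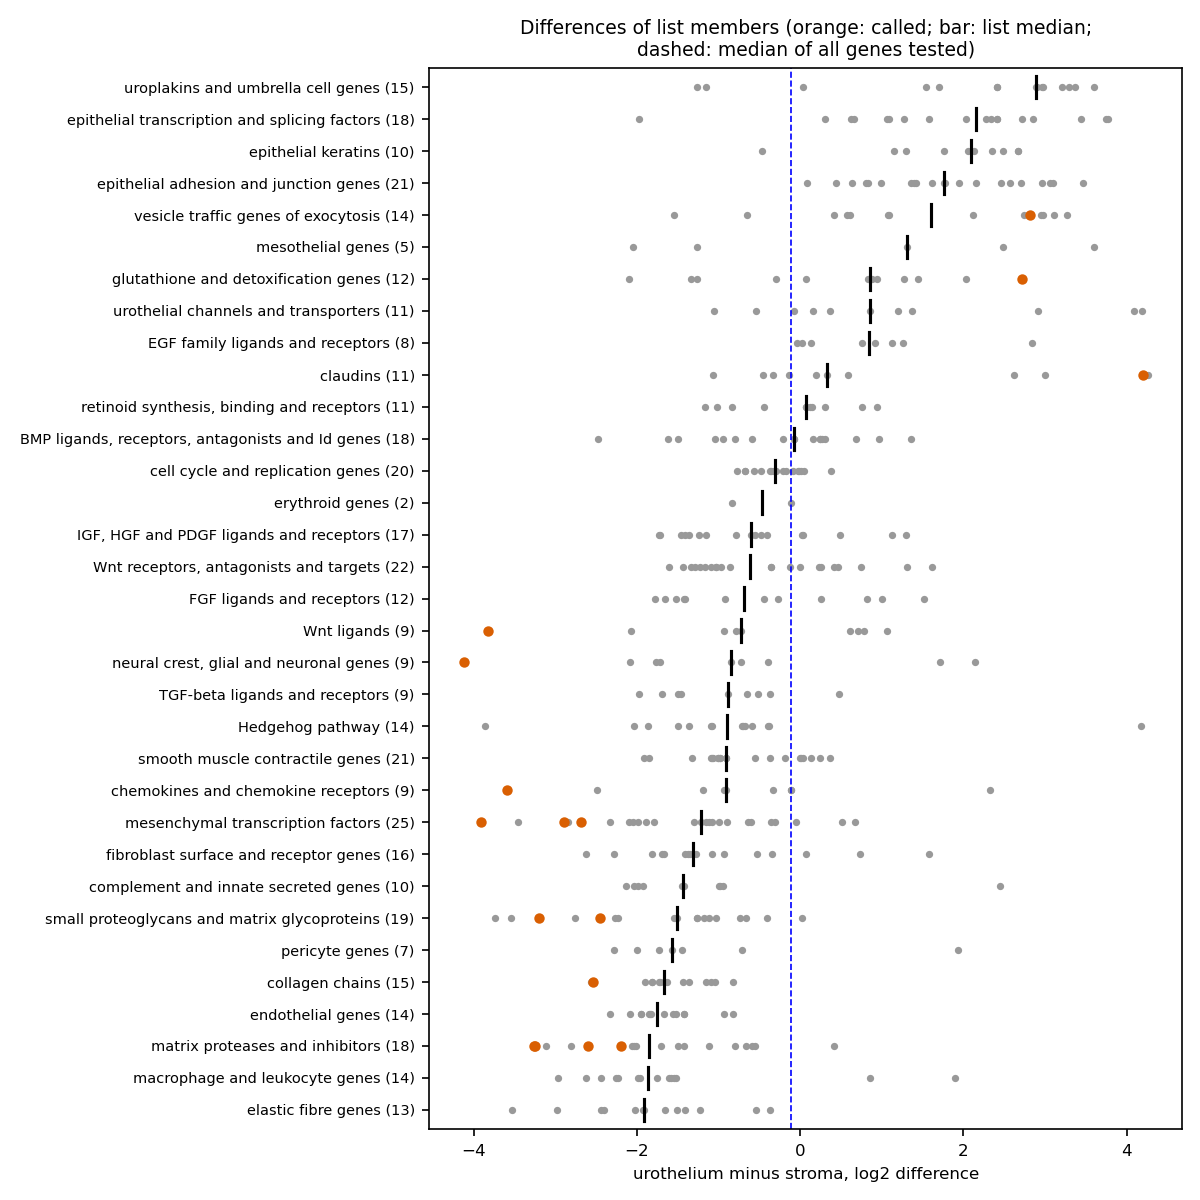
Urothelium minus stroma log2 difference of each tested member of the 33 gene lists, ordered by the list median (black bar), with the number tested in brackets. Called genes are orange, and the dashed line is the median of all genes tested (-0.12). The epithelial lists lie to the right of 0 and the matrix, endothelial and macrophage lists to the left, with most points uncalled.

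Of the 15 uroplakin and umbrella cell genes none was called with all arrays, and 5 were higher without stroma 3 and urothelium 3. Their median difference was 2.89, and 3.79 without the pair. Upk1b, a tetraspanin of the apical plaque, read 15.67, 16.07 and 15.91 on the urothelium arrays and 12.52, 10.25 and 15.97 on the stroma arrays. Stroma 3 was thus as high as the urothelium, and the difference of 2.97 (SE 1.09) had a limma adjusted p of 0.17. Upk3a, its plaque partner, read 15.53, 15.80 and 15.78 against 13.68, 8.52 and 15.30. Krt20, the keratin of umbrella cells, read 12.41, 13.26 and 12.51 against 10.10, 7.71 and 10.51, a difference of 3.29 with a limma adjusted p of 0.057. Stroma 3 stayed below every urothelium array for Krt20, unlike for Upk1b.

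The 10 keratins tested had a median difference of 2.09 and 6 of them had no overlap, but none was called in either fit. Krt5, the basal cell keratin, read 13.30, 14.50 and 13.25 in urothelium and 12.47, 8.78 and 12.76 in stroma. Stroma 2 was the only stroma array clearly low for Krt5, and stroma 1 and 3 came within 1 log2 unit of the urothelium. Krt18, a keratin of simple epithelia, read 15.64, 15.94 and 15.86 against 14.09, 11.56 and 15.64.

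For 21 adhesion and junction genes the median difference was 1.76, all 21 were positive, 11 had no overlap, and 4 were called without the pair. The desmosomal cadherins Dsc2 and Dsg2 read at least 11.87 and 15.06 in urothelium, with stroma values of 7.62, 8.79 and 10.35 for Dsc2 and 11.29, 10.89 and 14.15 for Dsg2. Their limma adjusted p was 0.057 and 0.064. Of 11 claudins 1 was called, Cldn8. Cldn23 read 13.30, 14.70 and 13.21 against 9.66, 6.91 and 11.88 and Cldn7 14.21, 14.73 and 13.99 against 11.12, 9.93 and 12.89, while Cldn15 read 8.81, 7.96 and 8.54 against 9.85, 8.45 and 10.22. The median of the claudins was 0.32, and 7 were positive and 4 negative.

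Of 18 epithelial transcription and splicing factors none was called with all arrays, 17 differences were positive and 10 had no overlap in that direction. The epithelial splicing regulator Esrp2 read 12.54, 13.84 and 12.85 against 9.61, 7.05 and 11.27, and the grainyhead-like factor Grhl3 12.04, 13.06 and 11.64 against 9.80, 8.80 and 10.92. Klf4, a zinc finger factor of epithelial differentiation, ran the other way. It read 12.15, 12.71 and 12.35 in urothelium and 15.55, 13.62 and 13.97 in stroma, without overlap, a difference of -1.97 (SE 0.52, limma adjusted p = 0.083).

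Channel genes and vesicle traffic genes were uneven. Of 11 channels and transporters, Slc14a1, a urea transporter, read 12.17, 13.36 and 12.65 against 9.58, 5.52 and 10.82, and the glycerol and water channel Aqp3 13.93, 14.36 and 13.66 against 11.32, 8.73 and 13.13. The sodium pump subunit Atp1b1 read 15.58 on stroma 3, above all urothelium arrays. Of 14 vesicle traffic genes Sytl2 was called, 12 differences were positive and the median was 1.60. Rab25, a small GTPase of apical recycling, read 12.07, 13.13 and 12.09 against 10.25, 7.16 and 10.58, and its motor partner Myo5b 12.66, 12.58 and 12.70 against 6.66, 9.78 and 11.72. Of 12 detoxification genes Gstm4 was called, 8 differences were positive and 4 were negative, 3 of the latter without overlap. The largest negative difference was that of Gstm2, at -2.10. Gstm5 also had this direction, at 11.39, 10.40 and 11.20 against 12.33, 12.67 and 12.02.

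Matrix genes had negative differences. All 15 collagen chains had a negative difference, 12 of them without overlap, and their median was -1.67. Of these Col5a1 was called with all arrays and 10 were called without stroma 3 and urothelium 3. Col1a1 and Col1a2, the chains of type I collagen, read 15.18 and 15.89 on urothelium 3 and 13.32 and 14.85 on urothelium 2. Stroma 1, 2 and 3 read 15.83, 15.71 and 16.14 for Col1a1, so its layers did not overlap, and the difference of -1.63 (SE 0.44) had a limma adjusted p of 0.085. Stroma 1 was the highest of the 6 arrays for 14 of the 15 chains.

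The elastic fibre list had the lowest median of the 33, at -1.92, with all 13 tested members negative and none called with all arrays. Fbln1, the glycoprotein fibulin-1, read 12.18, 11.74 and 13.41 against 15.21, 14.29 and 15.03 (limma adjusted p = 0.054). Loxl1, an elastin cross-linking oxidase, read 9.88, 8.22 and 11.50 against 13.56, 12.14 and 12.84. Among 19 proteoglycans and matrix glycoproteins Dcn and Vim were called, 18 differences were negative and the median was -1.51. Lum, a proteoglycan relative of decorin, read 11.34, 11.78 and 12.98 against 15.29, 13.92 and 14.25. Among 18 matrix proteases and inhibitors 4 were called and the median was -1.85.

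Of 25 mesenchymal transcription factors Creb5, Tcf21 and Twist2 were called, 23 differences were negative and the median was -1.22. Zeb2, a zinc finger repressor of epithelial genes, read 10.33, 9.17 and 10.23 against 12.30, 11.75 and 11.66. Tbx2 and Tbx3, T-box factors, had small positive differences of 0.67 and 0.51 with overlapping arrays. Among 16 fibroblast surface genes none was called with all arrays. Cd34, a sialomucin of fibroblasts and endothelium, read 12.03, 10.96 and 12.39 against 15.36, 13.73 and 14.16 (limma adjusted p = 0.054). Pdgfra, the platelet-derived growth factor receptor of fibroblasts, read 13.09, 12.69 and 13.58 against 14.39, 15.10 and 13.92.

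Of the Hedgehog genes, Shh was the one with a positive difference. Shh, a ligand, read 15.16, 15.60 and 15.51 in urothelium and 10.46, 8.70 and 14.59 in stroma, and 5.52 to 6.40 on the detrusor arrays. Stroma 3 was within 1 log2 unit of the urothelium, stroma 1 and 2 were far below it, and the difference of 4.17 (SE 1.11) had a limma adjusted p of 0.084. Without stroma 3 and urothelium 3 it was 5.80 and called. The receptor and target Ptch1 read 13.64, 14.23 and 13.84 in urothelium and 15.37, 14.71 and 14.92 in stroma, a difference of -1.10 (limma adjusted p = 0.068).

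The effector and target Gli1 read 8.57, 8.20 and 8.07 against 10.75, 9.63 and 10.04. The effector Gli2 read 10.60, 10.76 and 11.45 against 13.01, 12.51 and 11.80, and the co-receptor Boc 8.60, 7.78 and 8.92 against 10.88, 10.33 and 10.19. For these 4 genes every urothelium array was below every stroma array, with a limma adjusted p of 0.057 to 0.069. Stroma 3 was the stroma array nearest to the urothelium for Gli2 and Boc, and stroma 2 for Ptch1 and Gli1. Of the 14 Hedgehog genes tested, 13 differences were negative, 7 without overlap, and none was called with all arrays. Without stroma 3 and urothelium 3, Boc and Gli2 were called lower. Dhh, another ligand of the family and a member of the Sertoli list above, was looked at after its values were seen. It read 7.92, 6.33 and 8.52 in urothelium and 10.35, 14.32 and 9.69 in stroma, where stroma 2 was the highest array and stroma 1 and 3 were also above every urothelium array.

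Among 9 Wnt ligands Wnt2 was called. Wnt9a read 7.89, 8.19 and 8.53 against 10.60, 10.29 and 9.92, a difference of -2.07 (SE 0.38, limma adjusted p = 0.054), and was called without stroma 3 and urothelium 3. Wnt4 read 12.75, 12.96 and 12.69 in urothelium and 12.70, 9.70 and 12.83 in stroma, so only stroma 2 was apart. Of 22 receptors, antagonists and targets none was called with all arrays. The receptors Fzd6 and Fzd2 stood on opposite sides, Fzd6 at 13.98, 14.48 and 13.87 against 12.40, 12.44 and 13.55, and Fzd2 at 12.34, 12.10 and 12.41 against 13.83, 13.44 and 12.66. The secreted Dickkopf relative Dkk3 read 13.71, 13.71 and 14.68 against 15.60, 14.82 and 15.97.

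The BMP ligands ran apart. Bmp2 read 13.12, 13.30 and 12.71 in urothelium and 11.90, 10.74 and 12.41 in stroma, and Bmp4 10.49, 10.58 and 9.60 against 12.60, 10.77 and 11.78. Neither overlapped, the differences were 1.35 and -1.49, and the limma adjusted p was 0.13 and 0.15. The list of 18 BMP genes had a median of -0.07, which became 0.35 under median centring. The neuregulin receptor Erbb3 read 13.43, 14.38 and 13.40 against 10.19, 10.03 and 12.47, a difference of 2.84 (SE 0.58, limma adjusted p = 0.055), and was the 1 of 8 EGF family genes called without the pair. Fgfr3, a fibroblast growth factor receptor, read 12.60, 12.80 and 12.88 against 11.48, 10.12 and 12.13. Met, the hepatocyte growth factor receptor, read 12.55, 13.75 and 12.31 against 11.75, 10.77 and 12.19, and the growth factor Igf1 12.03, 11.69 and 12.30 against 14.86, 13.62 and 12.74.

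**Figure D4:**
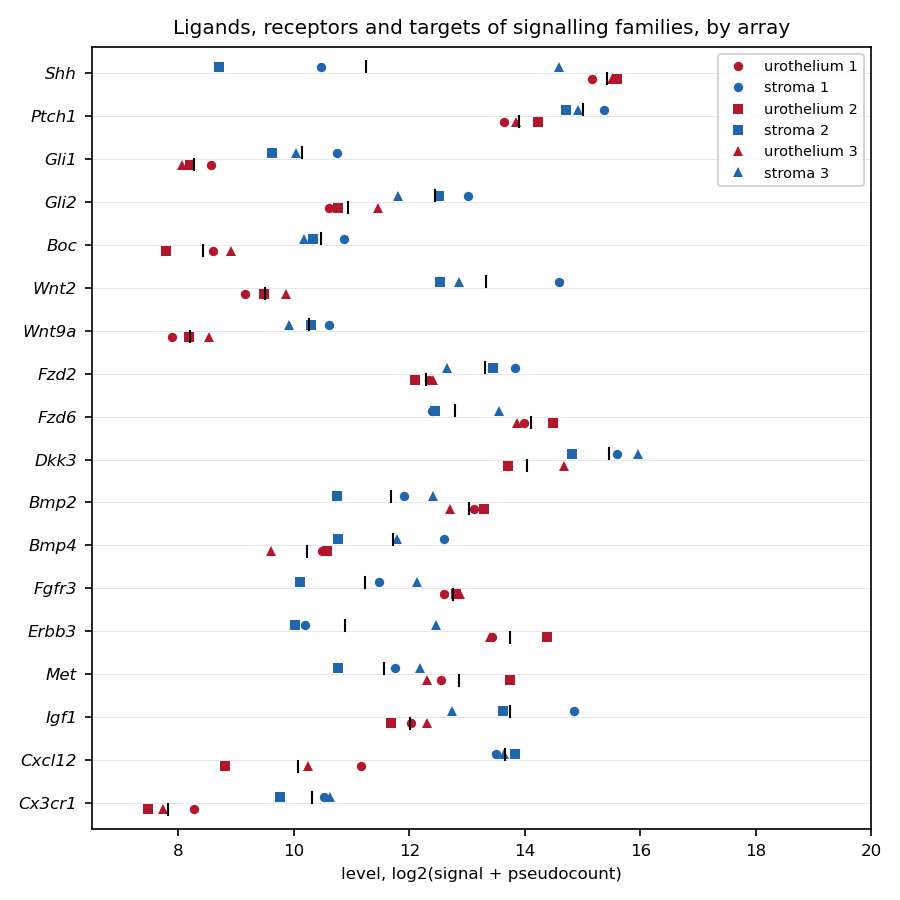
Level of 18 genes of the Hedgehog, Wnt, BMP, FGF, EGF, HGF, IGF and chemokine families on each urothelium (red) and stroma (blue) array, in log2(signal + pseudocount), with replicates as circles, squares and triangles and black bars at the means (n = 3). Shh, Fzd6, Bmp2, Fgfr3, Erbb3 and Met are higher on every urothelium array, stroma 3 (14.59) being far above stroma 1 and 2 for Shh, and the other 12 genes are lower on every urothelium array. Of the 18, Wnt2 and Cxcl12 were called. The 18 were picked from the named genes and do not stand for their families. Of the 9 Wnt ligands tested, for example, 2 had no overlap. Over all genes, 9.77% were higher and 13.3% lower in urothelium without overlap.

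Of the genes of vessels, macrophages and pericytes none was called in the fit of all arrays, and most differences were negative. All 14 endothelial genes had a negative difference, 10 without overlap, with a median of -1.75. Cdh5, the endothelial cadherin, read 10.97, 9.61 and 11.04 against 12.87, 11.93 and 12.37, and Sox18, an endothelial transcription factor, 10.28, 8.72 and 8.90 against 11.88, 11.81 and 11.18. Csf1r, the macrophage growth factor receptor, read 11.42, 11.21 and 11.73 against 15.27, 12.59 and 14.40, and the signalling adaptor Tyrobp 7.84, 8.50 and 8.29 against 13.07, 9.66 and 10.82. Stroma 1 was the highest of the 6 for 13 of 14 macrophage genes, which summed to 126811 there against 16028 and 56602 on stroma 2 and 3.

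Of the 14 macrophage and leukocyte genes tested, 12 had a negative difference, 6 of them without overlap, and 2 did not follow. Cd14 differed by 0.86. Ptprc, the common leukocyte antigen, read 10.17, 7.19 and 10.77 in urothelium and 8.36, 6.25 and 7.82 in stroma. For Ptprc the groups overlapped at urothelium 2. Of 7 pericyte genes 6 had a negative difference, such as the potassium channel subunit Kcnj8 at 9.71, 8.22 and 9.93 against 12.09, 10.35 and 11.44. Rgs5, a regulator of G-protein signalling used as a pericyte marker, stood against them at 15.65, 15.87 and 15.83 in urothelium and 14.23, 12.29 and 15.04 in stroma. Its groups did not overlap, and the difference was 1.93 (SE 0.55, limma adjusted p = 0.096). Without stroma 3 and urothelium 3 it was 2.50 and called (limma adjusted p = 0.048).

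Smooth muscle genes showed how the arrays of 1 layer differed. Actg2, the smooth muscle gamma-actin whose gene drives the transgene, read 10.94 and 9.64 on urothelium 1 and 2 and 16.33 on urothelium 3, against 15.32, 12.05 and 15.11 on the stroma arrays. Urothelium 3 was above every stroma array. Myh11, the smooth muscle myosin heavy chain, read 9.75, 8.03 and 15.66 against 11.90, 11.26 and 13.29. Urothelium 3 was the highest of the 6 for 19 of 21 smooth muscle genes, none of the 21 was free of overlap, and 2 were called lower when stroma 3 and urothelium 3 were left out. Cell cycle genes had a median of -0.31, which became 0.12 under median centring, and stroma 2 was the highest array for 16 of 21.

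Postnatal day split urothelium and stroma in the same way, with 1 array of day 1 and 2 of day 2 each. The detrusor was split the other way round. For the marker genes the day 1 pair, urothelium 2 and stroma 1, and the fit of the day 2 arrays gave differences of the same sign. The layers did not overlap for any marker gene, so the shared sign was fixed in advance and only the sizes are informative. Cldn8 differed by 5.31 on day 1 and 3.65 on day 2, Mpzl3 by 4.62 and 2.88, Wnt2 by -5.10 and -3.18, Cxcl12 by -4.70 and -3.03 and Dcn by -3.27 and -3.16. The test of the difference between days, which has 1 array of each layer on day 1 and takes its spread from the groups with 2, called no gene in limma, with 939 at an unadjusted p under 0.05 and a smallest adjusted p of 0.24. Day 2 of the stroma includes stroma 2, with gonadal transcripts, and stroma 3, with the highest uroplakin and umbrella cell sum of the stroma arrays. Stroma 1, of day 1, also carried urothelial transcripts, with a sum of 107869 against 24052 on stroma 2. It also had the largest 3-prime to 5-prime Actb ratio, 24.7. Of the 6 arrays, those of day 1 are urothelium 2 and stroma 1. Xist, the X-inactivation RNA, read 15.72 and 16.19 on them and 6.62 to 8.95 on the other 4. The Y-linked Eif2s3y read 5.95 and 5.82 on them and 11.92 to 12.31 on the others. Day and these sex-linked genes cannot be told apart here.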

How the data were processed

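The authors deposited 1 table of signal intensities for 45101 probe sets on 9 arrays, which per the submitters' processing notes came from GCOS. The platform annotation paired 34945 of them with a single symbol and 932 with several, 9160 were not named, and 64 were controls. Scale and centring are as deposited. The authors' intensity values were turned into log2(signal + 39.31). Probe sets at or above the array median on at least 3 of 9 arrays were kept (22207), and the one with the highest mean stood for each of 13064 genes. limma 3.58.1 in R 4.3.3 was fitted to all 9 arrays with the layer as the only term and a mean-variance trend, and p-values were Benjamini-Hochberg adjusted. On simulated data for this comparison, over 13064 genes, 36% of genes changed by 2 and 88% of those changed by 4 on the log2 scale were recovered. The simulation used independent noise, changed 50 genes at each size and held no signal shared between genes, unlike these arrays. With all arrays Scara5 (-4.90), Hsd17b2 (4.75) and Atp10b (4.54) were not called, while Cldn8 (4.20) and Stmn3 (-4.12) were. The simulated shares therefore do not give the power in these data.

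Named genes were the called genes, up to 4 members of each list with the smallest p and up to 2 against the list's direction, the 10 largest differences each way without stroma 3 and urothelium 3, and fixed layer markers. The 5 marker genes, the lists and this rule were chosen with earlier results of these data known, and the sex-linked and other tissue genes after the values were seen. Of the 200 genes the rule named, 14 have another probe set of the opposite sign. Of the 30 called genes 16 have several probe sets, none of the opposite sign, but some differed far less than the one used. Such probe sets gave -0.28 for Cnrip1, -0.40 for Abca9, -0.42 for Htra3, -0.55 for Tcf21, 0.58 for Atp6v1a and 0.76 for Hsdl2. With the mean of probe sets 23 of the 30 were still called. Named genes that were not called also had such probe sets, among them Dsg2 (0.70), Esrp2 (0.49), Fzd6 (0.19) and Zeb2 (-0.11). The number of arrays limits the precision.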

Additional observations from a re-analysis of the deposited data

How the results depend on the processing

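The counts of calls, the list medians and the differences of 100 named genes were recomputed under 24 settings, 2 of which, leaving out urothelium 1 with stroma 3 and stroma 2 with stroma 3, were chosen after seeing the data. The 30 called genes kept their direction in each, which was fixed in advance for the settings that only left arrays out. Calls went from 30 (8 higher and 22 lower) to 93 (42 and 51) with quantile normalization, 223 (192 and 31) with median centring, 304 (164 and 140) with the median as pseudocount, 53 (18 and 35) with the filter at 5 of 9 arrays, 116 (35 and 81) with the mean of probe sets, 440 (217 and 223) without stroma 3 and urothelium 3, 145 (99 and 46) without urothelium 1 and stroma 3, and 678 (396 and 282) without stroma 2 and 3, which leaves stroma 1 alone in its layer and assumes that it varies like the other groups. They went to 13 (2 and 11) with the 5th percentile as pseudocount, 10 (1 and 9) with no filter, 11 (1 and 10) with array weights and 10 (2 and 8) with day as a covariate. limma called 0 genes with the 6 arrays alone, without the mean-variance trend and on day 2 alone, where 2071, 2472 and 994 had an unadjusted p under 0.05. Leaving out 1 array gave 0 to 528 calls, 0 to 327 higher and 0 to 201 lower. The cause was not tested. Only Actg2 and Myh11, neither called, changed sign among the 100 genes followed: on day 2 alone to 0.052 and 0.43, and Myh11 also to 0.55 without urothelium replicate 2 (range -3.26 to 0.55 over single arrays left out) and to 0.26 without urothelium 1 and stroma 3. No paired analysis was possible because the labels give no replicate numbers, and those used here only name the arrays in the order listed. Depth on an array is signal over background, and genes near the bottom of the scale have compressed differences.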

Other observations

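Genes of gonad and kidney stood high on some of the arrays. Stroma 2 had 20 genes over 3 on the log2 scale above every other array, against 2 on urothelium 2, 1 on stroma 1 and none on the other 3 of the 6 arrays. Wt1, a transcription factor of gonadal and mesothelial cells, read 12.53 on stroma 2 against 6.32 to 10.90 on the other 5, and Cyp26b1, a retinoic acid-degrading enzyme, 13.28 against 7.24 to 11.10. Umod, the kidney protein uromodulin, read 15.53 on stroma 3, 13.47 on urothelium 1 and 12.20 on stroma 2, and Slc12a1, a salt transporter of the loop of Henle, 14.61 on urothelium 1 and 13.80 on stroma 3. These genes were picked after their values were seen.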
